A study of Apis mellifera with 6 samples.

Results

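The presynaptic release genes brp, Syt1 and Syx1A were examined in the brains of drones (D), queens (Q) and workers (W) of the honey bee, Apis mellifera. The 3 genes were chosen by name. Quantified transcripts were placed on the RefSeq genes of the Amel_HAv3.1 assembly by the outer ends of their exon coordinates. The 3 genes held 21 of 28232 placed transcripts and are 3 of 12289 genes with a placed transcript. The data are RNA-seq libraries of central brains. By the paper's account, optic lobes were dissected away, and in workers care was taken to remove the hypopharyngeal glands as well. There were 2 libraries each of drones, queens and workers, and each library came from a pool of brains of newly-eclosed bees. Drones are haploid males, while queens and workers are diploid females, and all bees were offspring of the same mother queen and were taken soon after eclosure with no treatment. A pool averages its bees, so the spread between both libraries of a phenotype is not the spread between single brains, and fewer neurons or less RNA of a gene per neuron cannot be told apart.

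Neurons release transmitter by fusing synaptic vesicles with the plasma membrane at a specialised site called the active zone. In Drosophila, where these genes are best known, Bruchpilot (brp) is a scaffold protein of the ELKS/CAST family that builds the dense projection of the active zone and gathers calcium channels beneath it. Synaptotagmin 1 (Syt1) sits on the vesicle and binds the calcium that enters through these channels, and Syntaxin 1A (Syx1A) is the SNARE protein of the plasma membrane that pairs with the vesicle SNARE to drive fusion.

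The libraries held 40453911 and 11287495 estimated counts in drones, 44373783 and 21203822 in queens, and 12432182 and 7685185 in workers. Levels are given as CPM (reads of a gene relative to the library's total, scaled by the TMM method), or as TPM, which also divides by transcript length. Gene levels differed by annotated strand in all 6 libraries. The 6059 genes on the minus strand held between 2.93% and 4.50% of the counts placed on genes, and the 6204 genes on the plus strand held between 95.4% and 97.0%. Among genes tested, the median minus-strand gene was at 1.65 and 1.14 CPM in drones, 1.26 and 1.56 CPM in queens and 1.23 and 1.13 CPM in workers, while the median plus-strand gene was between 46.4 and 51.3 CPM. Some genes that every cell uses were examined as well, chosen after their values were seen. On the minus strand the ribosomal protein gene RpL32 had between 0 and 0.208 CPM (at most 4 counts per library), whereas on the plus strand Rps14 had between 218 and 432 CPM. RpLP1, another ribosomal protein gene on the minus strand, had between 0.246 and 2.81 CPM. The chaperone gene Hsc70-4, on the minus strand, had between 7.46 and 62.5 CPM, and the chaperone gene Hsp90, on the plus strand, between 3502 and 4566 CPM. Hsc70-4 thus lay above the minus-strand medians in every library, and its lowest value was below the plus-strand medians. The cause of this division was not tested. brp lies on the plus strand, and both Syt1 and Syx1A lie on the minus strand, so the values of Syt1 and Syx1A cannot be read as the amount of their mRNA, and levels are not compared between genes of different strands.

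**Figure D1:**
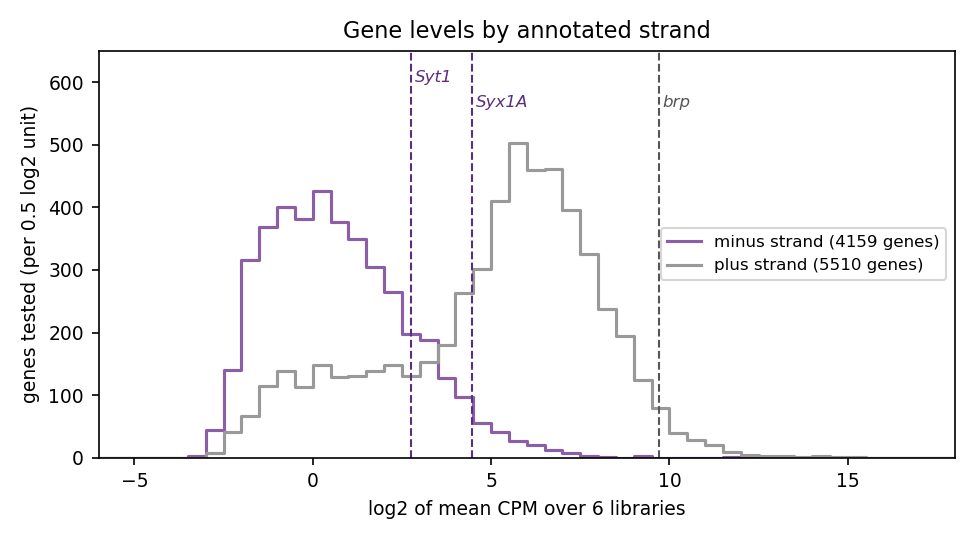
Number of tested genes (vertical axis) by the log2 of their mean CPM over 6 libraries (horizontal axis), for 4159 genes on the minus strand and 5510 on the plus strand. The dashed lines mark brp on the upper side of the plus-strand genes and Syt1 and Syx1A on the upper side of the minus-strand genes.

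brp was highest in queens, intermediate in workers and lowest in drones. It lies on chromosome 9 (LG9) from 8552456 to 8606318 and has 4 annotated transcripts of 6033 to 8864 nt. Drones had 639 and 554 CPM of brp (22474 and 5332 counts). Queens had 1141 and 1087 CPM (46332 and 21576 counts), and workers had 716 and 881 CPM (8746 and 6264 counts). No library of any phenotype overlapped with those of another, on the CPM scale or on the TPM scale. The means were 597 ± 60.1 CPM in drones, 1114 ± 38.0 CPM in queens and 799 ± 117 CPM in workers (SD, n = 2 each). On the TPM scale they were 113 ± 12 in drones, 277 ± 5.21 in queens and 182 ± 24.8 in workers.

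brp fell in drones relative to queens, with a log2 fold change of -0.90 ± 0.11 (SE) and an edgeR FDR of 0.000135. This is a mean of 0.536 times the queen level, and the call held under all 20 alternatives (log2 fold change between -1.29 and -0.79). Of all genes tested, 30.7% were called in this contrast, which is 42.3% of plus-strand genes and 15.3% of minus-strand genes. Between drones and workers the log2 fold change was -0.42 ± 0.11 (FDR = 0.0163), or 0.747 times the worker level. Here 28.6% of all genes, 39.4% of plus-strand genes and 14.2% of minus-strand genes were called. Queens were higher than workers by 0.48 ± 0.11 on the log2 scale (FDR = 0.0101), or 1.39 times, in a contrast that called 22.3% of all genes, 30.3% of those on the plus strand and 11.6% of those on the minus strand. Tested over all 3 phenotypes jointly, brp had an FDR of 0.000322, and this joint test of caste called 38.9% of all genes, 52.5% of plus-strand genes and 20.8% of minus-strand genes. Most plus-strand genes tested were thus called by caste. The step between drones and workers and that between queens and workers were less firm than the step between drones and queens. The call between drones and workers was lost without drone replicate 2 (FDR = 0.0777), queen replicate 1 (FDR = 0.0624) or worker replicate 2 (FDR = 0.114, with a log2 fold change of -0.26), and the call between queens and workers without queen replicate 1 (FDR = 0.119) or worker replicate 1 (FDR = 0.140).

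**Figure D2:**
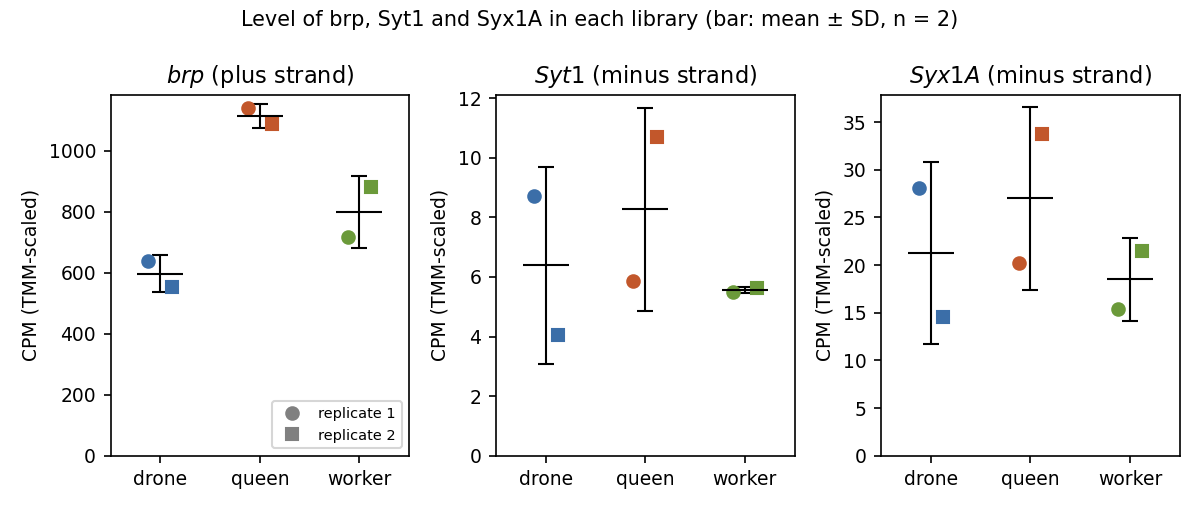
CPM (vertical axes, from 0, each panel on its own scale) of brp, Syt1 and Syx1A in drone, queen and worker libraries, with circles for replicate 1, squares for replicate 2 and black bars for the mean ± SD of 2 libraries. For brp the phenotypes do not overlap, while for Syx1A the lower drone library at 14.6 CPM and the higher at 28.1 CPM enclose both worker libraries.

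Among the 5510 plus-strand genes tested, brp ranked by TPM at 903 and 1102 in drones, 498 and 512 in queens, and 819 and 653 in workers. It therefore stood above at least 80% of these genes in every library. Its CPM was 13.6 and 10.8 times the plus-strand median in drones, 24.3 and 23.4 times in queens and 14.7 and 18.6 times in workers.

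Markers of other cell types also differed between the phenotypes. Of the marker names for neurons only 1 of 10 matched a gene symbol, Para, a sodium channel gene on the minus strand, so the neuronal share of the RNA could not be read from them. The 4 muscle genes on the plus strand (TpnT, TpnCI, TpnCIIa and TpnCIIb, all troponin genes) summed to 113 and 98.2 CPM in drones, 1075 and 968 CPM in queens and 170 and 218 CPM in workers, which is the same order of phenotypes as that of brp. The opsin genes Lop1 and Blop, which mark photoreceptors, were both lowest in queens but went opposite ways between drones and workers. Lop1 had 1328 and 1489 CPM in drones, 550 and 571 CPM in queens and 4614 and 4623 CPM in workers. Blop had 1009 and 1105 CPM in drones, 11.5 and 11.7 CPM in queens and 173 and 178 CPM in workers. The 12 hypopharyngeal gland genes summed to between 66.1 and 95.8 CPM in drones and queens, and to 21465 and 22651 CPM in workers. The worker sums came mostly from Mrjp1 (10715 and 11410 CPM) and Mrjp3 (5064 and 5338 CPM). Mrjp8 and Hbg2 were instead highest in drones. Mrjp8 had 18.4 and 19.3 CPM in drones and 12 and 11.4 CPM in workers, and Hbg2 had 2.84 and 3.74 CPM against 0.819 and 0.563 CPM. The dissection had aimed to remove these glands from workers. Fat body was represented on the plus strand by 1 gene, Tsf1, which encodes transferrin. Tsf1 had 2441 and 2622 CPM in drones, 1550 and 1478 CPM in queens and 1632 and 1847 CPM in workers, the reverse of the order of brp. The other matched fat body genes lie on the minus strand and did not share 1 order. Vg had 0.597 and 0 CPM in drones, 27.3 and 71.8 CPM in queens and 0.0819 and 0 CPM in workers. Hex110 was also highest in queens, Hex70a and Hex70c were highest in drones, and HEX70b overlapped between phenotypes. The part of these tissues in the values of brp was not tested.

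The 4 brp transcripts share most of their exons. Of 8910 exonic bases, 5913 (66.4%) were in all 4 transcripts, so most reads had to be divided between transcripts by estimation. Targets 17409, 17410 and 17411 start within 3 bases of each other at the distal end, and target 17412 starts 1707 bases downstream inside the same first exon. Target 17412 thus lacks a first-exon stretch of 1704 nt (8552459 to 8554162) that the other transcripts hold. Internal exons also differ. An exon of 960 nt (8584032 to 8584991) is in targets 17409 and 17410, and exons of 189 nt (8582082 to 8582270) and 21 nt (8597221 to 8597241) are in target 17409 alone. A further 72 nt (8574948 to 8575019) extend an exon at its upstream end in targets 17409 and 17412. The lengths of these 4 internal stretches divide by 3 into 320, 63, 7 and 24, so none would shift a reading frame that ran through it. Whether they are coding was not looked up.

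**Figure D3:**
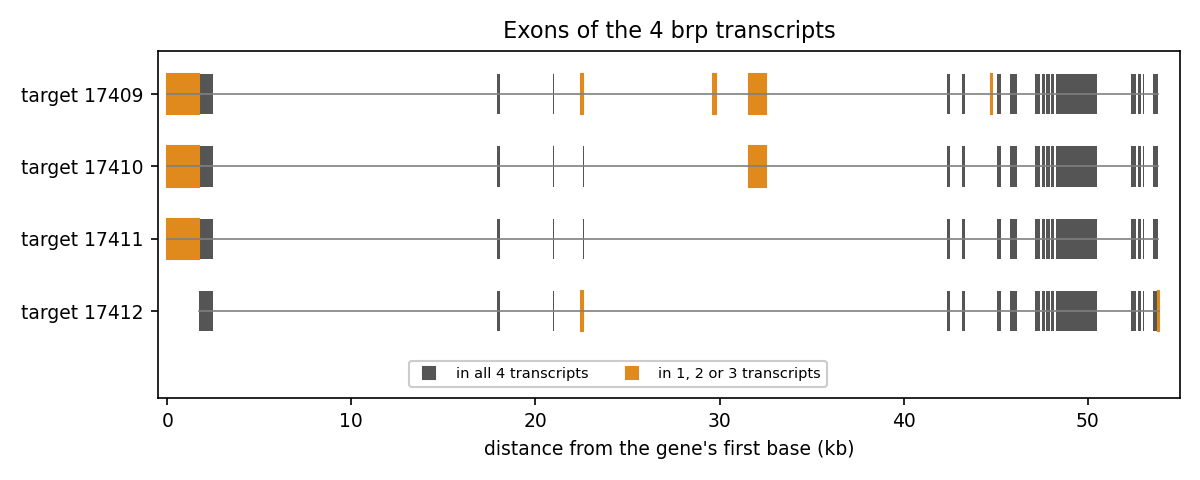
Exon maps of the 4 brp transcripts along the gene (horizontal axis, kb from the first base), with stretches found in all 4 transcripts in grey and those found in 1, 2 or 3 transcripts in orange. The short first exon of target 17412 and the 960 nt exon of targets 17409 and 17410 are the main differences, and 66.4% of exonic bases are common to all.

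Target 17412, the transcript with the downstream start, had the largest estimated TPM in every library, though only 46 of its bases were in no other transcript. Its share of the TPM of brp was 52.9% and 57.3% in drones, 55.2% and 55.5% in queens and 57.6% and 61.8% in workers. Both worker libraries thus lay above those of drones and queens, but the closest pair, 57.6% in workers against 57.3% in drones, was nearer than the libraries of either phenotype were to each other. Target 17411 held 25.1% and 21.4% in drones, 19.7% and 21.4% in queens and 20.6% and 15.2% in workers, and these ranges overlapped between queens and workers. Target 17410 held 15.4% and 13% in drones, 17% and 15.5% in queens and 14.1% and 16.1% in workers. Target 17409, which carries every optional exon, was the least abundant, with between 6.64% and 8.33% in all 6 libraries. By these shares the 960 nt exon was in between 21.4% and 25.1% of brp transcripts, and the distal first-exon stretch in 47.1% and 42.7% in drones, 44.8% and 44.5% in queens and 42.4% and 38.2% in workers.

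No difference in brp transcript shares passed the test. The gene-level test of shares (diffSpliceDGE of edgeR) gave an FDR of 0.975 between drones and queens, 0.534 between drones and workers and 0.885 between queens and workers. At unadjusted p these were 0.644, 0.256 and 0.638, so no contrast was below 0.05 before adjustment either. The same test called 5.56% of 3399 genes between drones and queens, 8.33% between drones and workers and 6.53% between queens and workers. Of single transcripts, target 17411 had the largest shift, 0.40 on the log2 scale in drones over workers relative to the gene as a whole (FDR = 0.893). With the 3 distal starts merged, a grouping chosen after seeing the data, the test of start sites gave an FDR of 0.974 between drones and queens, 0.481 between drones and workers and 0.592 between queens and workers. Each of the 4 transcripts was lower in both drone libraries than in both queen libraries on the TPM scale. TPM was not scaled by the TMM method, and on log2(TPM + 1) the median of all genes was -0.28 for drones over queens. Target 17412 was at 64.1 and 59.7 TPM in drones, against 155 and 152 TPM in queens. Target 17410 was at 18.7 and 13.6 TPM in drones, against 47.8 and 42.2 TPM in queens. Against workers the drones overlapped for target 17411, with 30.4 and 22.3 TPM in drones and 33.8 and 30.2 TPM in workers.

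**Figure D4:**
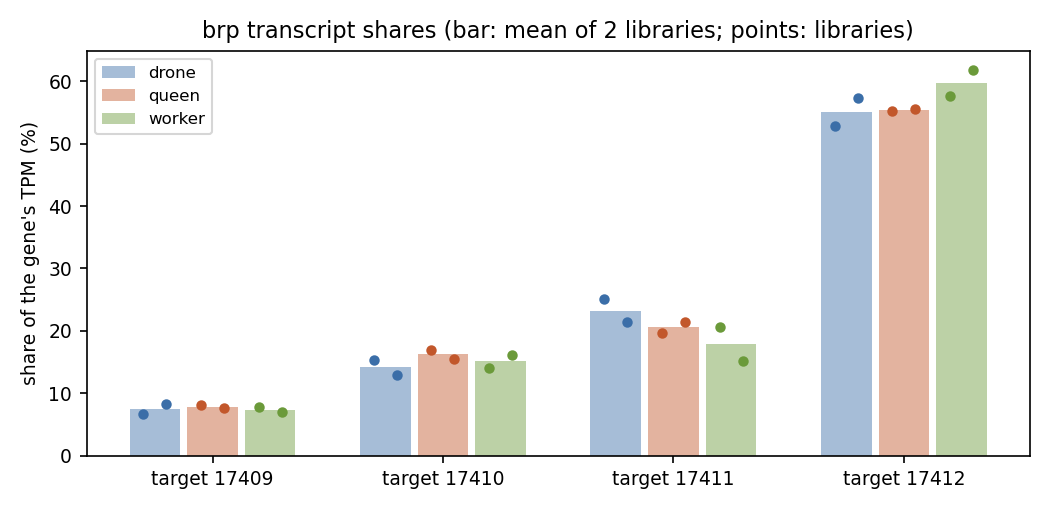
Share of the TPM of brp (vertical axis, percent, from 0) held by each of its 4 transcripts in drones, queens and workers, with bars for the mean of 2 libraries and points for the libraries. Target 17412 holds between 52.9% and 61.8% everywhere, and no shift between phenotypes passed the test of shares.

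Syt1, the vesicle calcium sensor, lies on the minus strand of chromosome 1 (LG1) from 5110754 to 5135245 and has 5 annotated transcripts. It had 307 and 39 counts in drones, 238 and 212 counts in queens and 67 and 40 counts in workers. These are 8.73 and 4.05 CPM in drones, 5.86 and 10.7 CPM in queens and 5.49 and 5.63 CPM in workers. The drone libraries enclosed those of workers, and the queen libraries overlapped with those of drones and lay above both worker libraries. Drone replicate 1 and queen replicate 2, which had the highest levels of Syt1, also had the highest medians over all minus-strand genes, 1.65 and 1.56 CPM. The part of this in the values of Syt1 was not tested. Set against the minus-strand median of its own library, Syt1 stood at 5.29 and 3.55 times in drones, 4.67 and 6.84 times in queens and 4.47 and 5 times in workers.

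No contrast of Syt1 was called. The log2 fold change was -0.31 ± 0.38 for drones over queens (FDR = 0.607), 0.25 ± 0.40 for drones over workers (FDR = 0.683) and 0.56 ± 0.39 for queens over workers (FDR = 0.347), and its FDR in the joint test of caste was 0.494. The sign of the first contrast turned without drone replicate 2 (0.10) and without queen replicate 2 (0.17), and that of the second without drone replicate 1 (-0.45). The third was 0.08 without queen replicate 2 and 0.91 without queen replicate 1. These standard errors are wide beside the 0.11 of brp, so the missing calls do not show that Syt1 was alike in the 3 phenotypes. Over all minus-strand genes tested, the median log2 fold change was 0.00 for drones over queens, 0.20 for drones over workers and 0.26 for queens over workers. With minus-strand genes fitted alone, a fit added after seeing the data, the contrasts of Syt1 were -0.18, 0.18 and 0.36 in the same order. A plus-strand gene, LOC107964984 (5114774 to 5117587), shares 577 exonic bases with Syt1. It had 98 and 29 counts in drones, 66 and 28 counts in queens and 38 and 29 counts in workers. Whether reads pass between the overlapping genes was not tested.

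The transcripts of Syt1 rested on few reads, and their estimates changed between libraries of the same phenotype. Target 672 had 0 counts in all 6 libraries, and the other 4 passed the filter. Target 674, a short form of 1347 nt, was estimated in every library, with 110 and 6.08 counts in drones, 56.2 and 61.3 counts in queens and 13.3 and 10.8 counts in workers. Targets 670 and 671 share both ends and differ in length by few bases, at 4505 and 4511 nt. Target 670 had 177 and 28.3 counts in drones and 124 and 26.3 counts in queens, and below 1 count in workers. Target 671 had 6.77 and 4.39 counts in drones, 0 and 90.0 counts in queens and 53.6 and 29.0 counts in workers. Target 673 had 12.6 and 0 counts in drones, 57.9 and 34.8 counts in queens and 0 in both worker libraries. Between targets 670 and 671 the reads were thus given mostly to target 670 in drones and to target 671 in workers, and the queen libraries went opposite ways. The gene-level test of shares gave an FDR of 0.737 between drones and queens, 0.0787 between drones and workers and 0.131 between queens and workers.

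Syx1A, the plasma membrane SNARE gene, lies on the minus strand of chromosome 11 (LG11) from 16176811 to 16195265 and has 12 annotated transcripts. It had 987 and 140 counts in drones, 821 and 671 counts in queens and 188 and 153 counts in workers, or 28.1 and 14.6 CPM in drones, 20.2 and 33.8 CPM in queens and 15.4 and 21.5 CPM in workers. The phenotypes overlapped in every pair on this scale. As for Syt1, drone replicate 1 and queen replicate 2 were the highest libraries. Set against the minus-strand median of the same library, Syx1A stood at 17 and 12.7 times in drones, 16.1 and 21.6 times in queens and 12.5 and 19.1 times in workers.

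No contrast of Syx1A was called either. The log2 fold change was -0.30 ± 0.32 for drones over queens (FDR = 0.545), 0.25 ± 0.33 for drones over workers (FDR = 0.616) and 0.55 ± 0.33 for queens over workers (FDR = 0.265), with an FDR of 0.387 for caste. The first contrast turned sign without drone replicate 2 (0.07) or queen replicate 2 (0.10), and the second without drone replicate 1 (-0.32). The third was 0.14 without queen replicate 2, 0.31 without worker replicate 1 and 0.85 without queen replicate 1. In a fit on minus-strand genes alone, added after seeing the data, these contrasts of Syx1A were -0.18, 0.16 and 0.33.

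Of the 12 Syx1A transcripts, 2 had 0 counts in all libraries and 4 passed the filter. Target 21988, of 7479 nt, had the largest count in every library, with 493 and 109 in drones, 498 and 491 in queens and 182 and 143 in workers. That is 49.9% and 78.1% of Syx1A counts in drones, 60.7% and 73.3% in queens and 96.8% and 93.7% in workers. The worker libraries thus lay above all others, but their shares rest on 188 and 153 counts of the gene, divided by estimation. Target 21989, which shares both ends with target 21988 and has 7750 nt, had 246 and 0 counts in drones, 166 and 83.7 counts in queens and 0 in both worker libraries. Target 21996 was the only other transcript with counts in every library, with 61.4 and 6.71 in drones, 69.4 and 63.1 in queens and 6 and 4.11 in workers. Target 21991 had at most 35.5 counts. The gene-level test of shares gave an FDR of 0.999 between drones and queens, 0.161 between drones and workers and 0.196 between queens and workers.

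Of 74 names in the list of synaptic release and adhesion genes, 5 matched a gene symbol or synonym. These were brp, Syt1, Syx1A, Cac and Nrx-1. Another 3, the neuroligin genes NLG-3, NLG-4 and NLG-5, matched once a hyphen was allowed for, a spelling settled after values were seen. Of these 8 genes, brp, Cac, NLG-4 and NLG-5 lie on the plus strand. All 4 were called by the joint test of caste, which called 52.5% of plus-strand genes, and all 4 were lower in drones than in queens, a contrast that called 42.3% of plus-strand genes in either direction, with a median log2 fold change of -0.91 against 0.00 for plus-strand genes as a whole. Between drones and workers 3 of the 4 were lower in drones (median -0.44, against -0.05), where 39.4% of plus-strand genes were called. Between queens and workers 3 of the 4 were higher in queens (median 0.47, against -0.04), where 30.3% were called.

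Cac, which in Drosophila encodes the pore-forming subunit of the presynaptic calcium channel that Bruchpilot gathers, had its low point in drones. It had 501 and 485 CPM in drones, 1071 and 987 CPM in queens and 955 and 1056 CPM in workers. Drones were lower by a log2 fold change of -1.06 ± 0.08 than queens (FDR = 4.81e-06) and of -1.03 ± 0.08 than workers (FDR = 7.73e-06). Queens and workers overlapped in CPM, with a log2 fold change of 0.03 ± 0.08 (FDR = 0.799). The ratio of brp to Cac in TPM was 1.48 and 1.35 in drones, 1.24 and 1.28 in queens and 0.879 and 0.985 in workers, so it was above 1 in drones and queens and below 1 in both worker libraries. This ratio was not tested.

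The neuroligins are adhesion proteins that bind neurexin across the synaptic cleft. NLG-5 had 35.6 CPM in both drone libraries, 72.1 and 63.4 CPM in queens and 46.5 and 52.5 CPM in workers, the same order of phenotypes as brp and with no overlap. Its log2 fold change was -0.93 ± 0.11 for drones over queens (FDR = 9.97e-05), -0.47 ± 0.11 for drones over workers (FDR = 0.0102) and 0.46 ± 0.11 for queens over workers (FDR = 0.0128). NLG-4 had 90.7 and 94.3 CPM in drones, 131 and 119 CPM in queens and 78.7 and 91.6 CPM in workers. It was lower in drones than in queens (-0.44 ± 0.09, FDR = 0.00419) and higher in queens than in workers (0.56 ± 0.09, FDR = 0.00177), while drones and workers overlapped (0.12 ± 0.09, FDR = 0.362).

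On the minus strand the list held Syt1, Syx1A, NLG-3 and Nrx-1, the neurexin gene, and none of the 4 was called by the joint test of caste. Nrx-1 was called once, between drones and workers (FDR = 0.0461), on 35 and 2 counts in drones, against 30 and 16 counts in workers, and 8 of 19 alternatives called it. NLG-3 had between 7 and 62 counts per library and was not called.

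**Figure D5:**
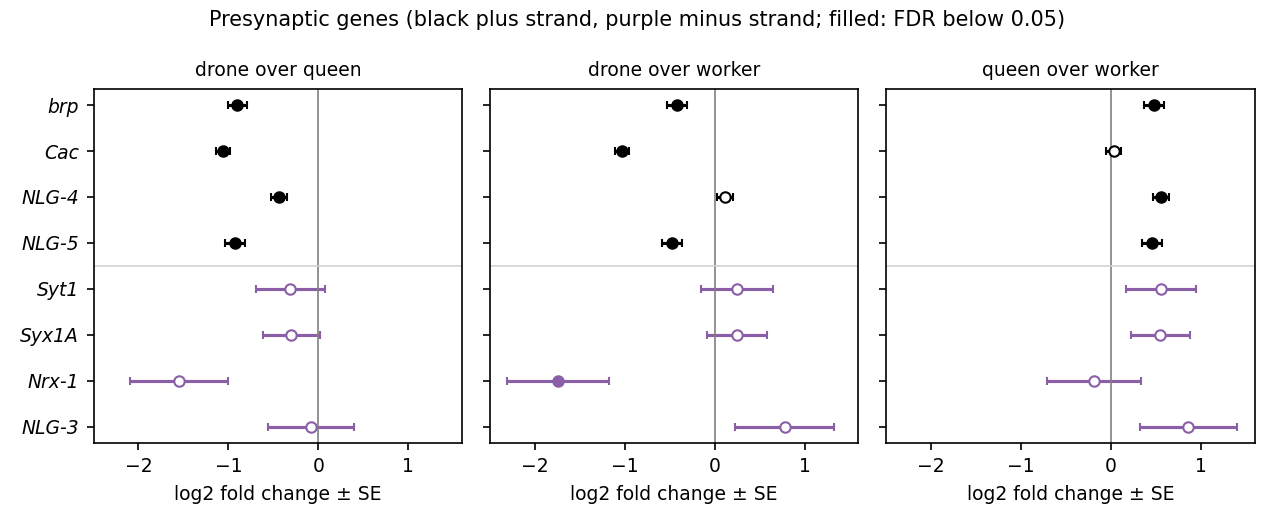
Log2 fold change ± SE (horizontal axes) of the 8 matched genes of the synaptic release and adhesion list, neuroligins (NLG) among them. The panels show drones over queens, drones over workers and queens over workers. Plus-strand genes are in black above the line, minus-strand genes in purple below it, and filled points have an FDR below 0.05. All 4 plus-strand genes are lower in drones than in queens, from -0.44 to -1.06, and the minus-strand genes have wider errors.

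The genes whose pattern over the 6 libraries was most like that of brp were found by the root mean square difference of log2 CPM after centring each gene, among 183 other genes with a symbol and a mean of at least 10 CPM. The median difference from brp over these genes was 0.503. The nearest was NLG-5 (0.0799), followed by Stg-1 (0.113), Nipped-B (0.12), Amih (0.127) and SIFR (0.141). Nipped-B is known in Drosophila as a cohesin loader, Amih encodes a hyperpolarization-activated ion channel and SIFR is the receptor of the neuropeptide SIFamide. SIFR had 302 and 305 CPM in drones, 691 and 666 CPM in queens and 407 and 434 CPM in workers. Amih had 401 and 384 CPM in drones, 888 and 857 CPM in queens and 501 and 562 CPM in workers. All 5 lie on the plus strand, and among all 4582 other genes at this level NLG-5 ranked 9 in likeness to brp, so genes without a symbol were closer still.

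The named gene nearest to Syt1 was Syx1A. Their difference was 0.143, against a median of 0.579 from Syt1 to the genes of the pool, while brp differed by 0.45 from Syt1 and by 0.414 from Syx1A. Next to Syt1 came Br-c (0.354) and Mblk-1 (0.361), both transcription factor genes on the minus strand, then Gr10 (0.402) and Dll (0.412). Among all 4583 other genes at this level, with or without a symbol, these ranked 22, 26, 67 and 100 in likeness to Syt1. Next to Syx1A came Mblk-1 (0.249), Br-c (0.313), cact1 (0.357), Gr10 (0.369) and pHCl (0.376), with Syt1 below the level required. Among all 4582 other genes these ranked 6, 21, 68, 92 and 119 in likeness to Syx1A. Mblk-1 had 68.2 and 44.1 CPM in drones, 49.7 and 66.8 CPM in queens and 27.1 and 47.7 CPM in workers, with drone replicate 1 and queen replicate 2 again the highest. These likenesses describe 6 libraries that differ in depth and in the level of minus-strand genes, and they carry no test.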

How the data were processed

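Poly(A) RNA of pooled central brains was sequenced in 6 directional libraries, although the GEO label of the molecule reads genomic DNA. The authors quantified reads with Kallisto in strand-specific mode against EnsemblMetazoa cDNA and non-coding RNA of Amel_HAv3.1 (the version of Kallisto is not given in the sources used here) and deposited, for 28409 targets, an estimated count, which is not normalized, and a TPM value. The deposited coordinate table covers 28381 targets.

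Targets were placed on RefSeq genes by the outer ends of their exons, without use of the strand. In this way 28232 paired with 12289 genes, of which the targets spanned 98.1% exactly and 26 had targets on both strands. The strand is the sign in that table. The 177 unpaired targets were left out. Between 89.6% and 92.7% of a library's counts were paired. Counts were summed per gene and rounded. The 9687 genes that reached 5 counts in 3 or more libraries were tested with edgeR 4.0.16 in R 4.3.3 (TMM, quasi-likelihood, caste as the only factor over all 6 libraries, common biological coefficient of variation 14.7%, 3 residual degrees of freedom), with Benjamini-Hochberg FDR at 0.05. Standard errors were derived from fold change and F. Shares were tested with diffSpliceDGE on 10928 transcripts. All bees had the same mother queen, so p-values measure only the spread between these libraries and not that between colonies.

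Alternatives were other scalings, limma 3.58.1 on log2(TPM + 1), DESeq2 1.42.0, filters, thinning, removal of the 10 most abundant genes, a replicate block, only the compared phenotypes and each library left out. Tests were tried on simulated data. Tables and figures used pandas 2.3.3 and matplotlib 3.10.9. The members, lists, tests and alternatives were chosen with earlier results of these data known. Genes named are the 3 members with each transcript that passed the filter, list genes called by the joint test, and the 5 genes most like each member; others are named as chosen after their values were seen.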

Additional observations from a re-analysis of the deposited data

How the results depend on the processing

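Over all alternatives run, brp kept its direction in the 3 contrasts, and its joint test of caste passed in all 19. Between drones and workers its log2 fold change was -0.38 and not called when drones and workers were fitted on their own, and ranged from -0.53 to -0.26 as each library was left out. Between queens and workers it ranged from 0.33 to 0.64. Limma on log2(TPM + 1) moved the median of all genes to -0.28 between drones and queens, and library totals moved it to -0.12, with brp at -1.29 and -1.02. The fit on plus-strand genes alone, chosen after seeing the data, gave brp -0.89, -0.37 and 0.52, all called.

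As each library was left out, Syt1 ranged from -1.01 to 0.17 between drones and queens and from -0.45 to 0.65 between drones and workers, and Syx1A from -0.88 to 0.10 and from -0.32 to 0.62. Between queens and workers Syt1 ranged from 0.08 to 0.91 and Syx1A from 0.14 to 0.85. Limma on log2(TPM + 1) gave Syt1 -0.03 between drones and workers. The gene-level FDR of Syt1 shares between queens and workers was 0.0393 with limma's diffSplice and 0.0752 to 0.377 with libraries left out. That of Syx1A ranged from 0.0262 to 0.889 between drones and workers and from 0.0267 to 0.624 between queens and workers. The cause of these changes was not tested. Genes called ranged from 1979 to 2945 between drones and queens and from 1188 to 2570 between queens and workers with a library left out. List genes called between drones and workers numbered 2 of 8 in that fit and from 1 to 4 with a library left out, and between queens and workers from 1 to 3.

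Deviations of same-numbered libraries correlated at -0.360 between drones and queens, -0.229 between drones and workers and -0.028 between queens and workers. With 2 libraries per phenotype, these values cannot decide whether replicate numbers pair the samples. With the replicate block, brp was at -0.90, -0.42 and 0.48, and 2457, 2266 and 1686 genes were called in the 3 contrasts, with no call of a member changed. The lowest libraries held 39 counts of Syt1 and 140 of Syx1A, and transcripts with few reads were divided by estimation.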

Other observations

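Low values were found in minus-strand genes with and without an overlapping gene. Among 1323 minus-strand genes whose exons overlap an exon of a plus-strand gene the median of the mean CPM was 1.30, and among 4736 with no such overlap it was 0.509. For plus-strand genes it was 41.4 with an overlap (1323 genes) and 38.1 without (4881 genes). The sign in the coordinate table follows the usual layout of genes, in which the last exon is the longest. In plus-strand transcripts the median exon at the low-coordinate end had 279 nt and that at the high-coordinate end 549 nt, and in minus-strand transcripts these were 539 nt and 264 nt. The cause of the difference between strands was not tested.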
